A study of Mus musculus with 4 samples.

Results

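The genes described here are the 4 fibroblast growth factor (FGF) receptor genes Fgfr1, Fgfr2, Fgfr3 and Fgfr4 and the 5 FGF genes Fgf3, Fgf9, Fgf10, Fgf13 and Fgf18. They were chosen by symbol, and all 9 were measured among 22180 genes. Expression was compared between aggregates collected at day 7 (2 arrays) and at day 4 (2 arrays) of retinal differentiation. Both groups were grown in matrigel with retinal differentiation medium from the same wild-type mouse embryonic stem cell line. That line, EB5, came from strain 129/Ola and carries a GFP knock-in driven by the promoter of Rx (Rax), an eye field gene. The line is a single reporter line, so other lines are not represented, and as no label ties the replicates to separate cultures, the p-values measure only how far these samples differ, possibly for technical reasons.

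Most FGFs are secreted proteins that bind receptor tyrosine kinases together with heparan sulfate chains at the cell surface and act largely through the ERK kinase cascade. In the embryo they take part in the exit from pluripotency and in the induction of neural tissue. In the developing eye, FGF signals favour neural retina over pigment epithelium in the optic vesicle and later take part in lens and lacrimal gland formation. Fgf13 is set apart from the other 4 FGF genes, because its product stays inside the cell, where it binds voltage-gated sodium channels and microtubules.

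Values are RMA signals on a log2 scale, so a difference of 1 is a 2-fold difference in normalized signal. Array medians lay between 5.68 and 5.77, and replicates correlated across probe sets (day 7 r = 0.991, day 4 r = 0.986) more closely than arrays of different days did (0.972 to 0.978). The eye identity of the aggregates was checked on a marker list. Of its 8 measured genes 5 were called higher at day 7 and 0 lower, beside 6.15% and 4.33% of all genes. The 5 were Rax, Pax6, Lhx2, Sfrp2 and Hmga2, most of which the forebrain also expresses, and without day 4 replicate 1 or day 7 replicate 2 the count was 3. Of the eye field genes not called, Six3 read 7.54 and 8.06 on the day 7 arrays, against 6.49 and 8.38 on those of day 4, with overlapping groups (adjusted p = 0.786). Six6 read 7.11 and 9.33 on the day 7 arrays, against 6.13 and 6.32 on those of day 4 (adjusted p = 0.0917). It was called higher under 4 alternatives, among them a replicate block (limma adjusted p = 0.0371), median centring (0.0232) and an intensity trend (0.0357). With robust estimation added to the trend, Six6 had 0.29. Rax read 7.62 and 8.37 on the day 7 arrays, against 6.14 and 6.82 on those of day 4. Its adjusted p of 0.021 became 0.052 without day 4 replicate 1 and 0.119 without day 7 replicate 2. The aggregates are bulk samples, so fewer cells of a type and less RNA per cell cannot be told apart.

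Of the 9 FGF genes, Fgf13 and Fgfr3 rose by day 7, 0 fell, and 7 were not called. Fgf13 was 2.41-fold and Fgfr3 2.27-fold higher at day 7, while the differences of the other 7 ran between -0.31 and 0.23 log2. A gene was called at an adjusted p under 0.05, with limma's moderated test adjusted over all 22180 genes. Over all genes limma called 10.5%, with 6.15% higher and 4.33% lower at day 7. The median difference of the 9 genes was 0.13 log2, beside -0.0036 over all genes, and the median absolute difference 0.14, beside 0.18. Both arrays of day 7 lay outside both arrays of day 4 for 4 of the 9 genes, beside 50.8% of all genes. Without day 7 replicate 1, 1 of the 9 genes was called in place of 2, and with each gene's variance taken from the 4 arrays alone, without limma's variance prior, neither Fgf13 (adjusted p = 0.222) nor Fgfr3 (0.333) passed.

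**Figure D1:**
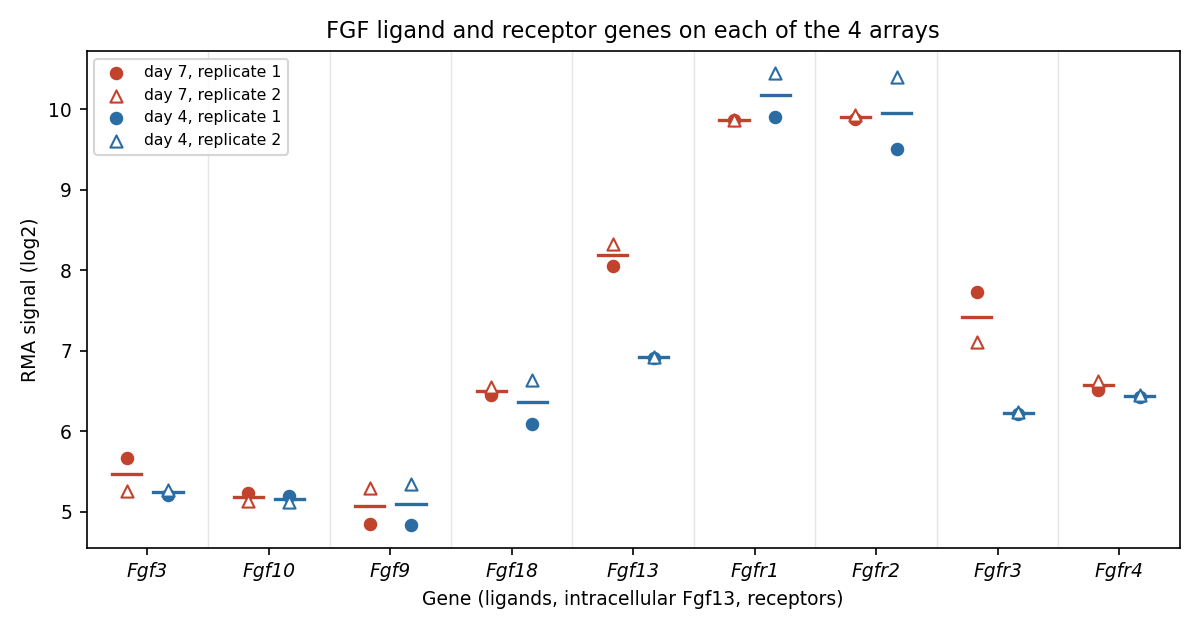
Log2 RMA signal (vertical axis) of the 9 FGF genes on each array, with day 7 in red left of day 4 in blue, replicate 1 as filled circles, replicate 2 as open triangles and the mean of the 2 arrays as a line. The days are clear of each other for Fgf13 and Fgfr3, and the replicates of Fgfr2 lie 0.90 apart at day 4.

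Among the secreted ligands, Fgf3 and Fgf10 belong to the group of FGFs that includes Fgf7 and Fgf22. Fgf3, a ligand of inner ear and hindbrain development, read 5.67 and 5.26 on the day 7 arrays, against 5.21 and 5.27 on those of day 4. Replicate 1 of day 7 was the highest array and the groups overlapped, with a difference of 0.23 log2 (SE 0.17, 95% interval -0.19 to 0.64, adjusted p = 0.544). Fgf10, a mesenchymal ligand of lung, limb and lacrimal gland development, read 5.24 and 5.14 on the day 7 arrays, against 5.20 and 5.13 on those of day 4. The groups overlapped, with a difference of 0.02 log2 (SE 0.14, 95% interval -0.30 to 0.35, adjusted p = 0.957). A second Fgf10 probe set, not used in the fit, read 4.74 and 4.69 on the day 7 arrays, against 4.91 and 4.92 on those of day 4, a difference of -0.20. Fgf7 and Fgf22, relatives of these ligands, differed by 0.10 and -0.10 log2 and were not called (adjusted p = 0.772 and 0.801).

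Fgf9, a ligand that in the mouse optic vesicle helps set the border of neural retina and pigment epithelium, read 4.84 and 5.30 on the day 7 arrays, against 4.83 and 5.35 on those of day 4. Replicate 2 was the higher array on both days, and the groups lay over each other (difference -0.02 log2, SE 0.23, 95% interval -0.56 to 0.52, adjusted p = 0.981). The sign of this difference turned, to 0.24, without day 4 replicate 2 and, to 0.21, without day 7 replicate 1. Its closest relatives Fgf16 and Fgf20 differed by 0.15 and -0.52 log2 and were not called (adjusted p = 0.663 and 0.0805). Fgf18, a ligand of skeletal and lung development from the group of Fgf8 and Fgf17, read 6.45 and 6.55 on the day 7 arrays, against 6.09 and 6.63 on those of day 4. Both arrays of day 7 lay between the 2 of day 4 (difference 0.14 log2, SE 0.20, 95% interval -0.33 to 0.61, adjusted p = 0.779). Fgf8, a signal of the forebrain midline and the midbrain border, differed by 0.18 log2 and Fgf17 by -0.20 log2 (adjusted p = 0.712 and 0.512).

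The secreted ligands that did pass the test lay outside the 9 genes. Among 14 other secreted FGF ligands on the array, 2 fell, 0 rose and 12 were not called, beside calls for 10.5% of all genes. Fgf5, the ligand of the primed epiblast, read 5.74 and 6.13 on the day 7 arrays, against 10.66 and 10.62 on those of day 4, a 26.1-fold fall (-4.71 log2, SE 0.17, adjusted p = 3.96e-05). Fgf4, the ligand through which pluripotent cells signal to themselves, read 7.91 and 8.0 on the day 7 arrays, against 9.25 and 8.91 on those of day 4 (-1.13 log2, SE 0.16, adjusted p = 0.00624, or 0.065 with day 7 replicate 1 left out). Fgf15, a ligand of the embryonic forebrain and retina, read 9.79 and 9.61 on the day 7 arrays, against 10.10 and 9.89 on those of day 4. Both of its day 7 arrays were below those of day 4, by 0.29 log2 on average, and it was not called (adjusted p = 0.332). The differences of the 12 ligands that were not called ran between -0.52 and 0.28 log2, and the median of all 14 was -0.022.

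Fgf13, the intracellular FGF, was the FGF gene with the largest rise. It read 8.05 and 8.33 on the day 7 arrays, against 6.91 and 6.93 on those of day 4, and the 2 arrays of day 4 were within 0.015 of each other. The means were 8.19 ± 0.19 at day 7 and 6.92 ± 0.01 at day 4 (SD, n = 2 per day), a difference of 1.27 log2 (SE 0.15, 95% interval 0.91 to 1.64, limma adjusted p = 0.00286). The difference lay between 1.14 and 1.41 with each array left out in turn, with adjusted p-values of 0.0053 to 0.0331, so that the call did not rest on 1 array. Its relatives split by direction. Fgf12, another intracellular factor of the same group, read 5.93 and 6.08 on the day 7 arrays, against 5.30 and 5.22 on those of day 4 (0.75 log2, adjusted p = 0.0181). Fgf11 read 6.27 and 6.26 on the day 7 arrays, against 7.03 and 7.11 on those of day 4 (-0.81 log2, adjusted p = 0.0114). Fgf14 read 6.32 and 6.27 on the day 7 arrays, against 7.23 and 6.89 on those of day 4 (-0.77 log2, adjusted p = 0.0274). All 3 were called with all 4 arrays, 1 higher and 2 lower at day 7, beside calls for 10.5% of all genes. Of those 3 calls 0 held without day 7 replicate 1 (adjusted p = 0.0948, 0.0992 and 0.152 for Fgf12, Fgf11 and Fgf14) or without day 7 replicate 2 (0.15, 0.0943 and 0.169). Fgf14 also had 0.0794 without day 4 replicate 1.

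Fgf13 has several first exons that give different amino ends, and RefSeq (GRCm38.p6) lists 4 start windows for it on the minus strand of chromosome X, each running from 250 bases before a start to 50 after it. The 2 windows richest in CpG are printed because they show that the gene has more than 1 CpG-rich start, which the single probe set does not separate. Capitals mark GC boxes (GGGCGG on either strand, overlaps counted), and the sequences read 5′ to 3′ on the strand of the gene.
Fgf13 chrX:59134387-59134686: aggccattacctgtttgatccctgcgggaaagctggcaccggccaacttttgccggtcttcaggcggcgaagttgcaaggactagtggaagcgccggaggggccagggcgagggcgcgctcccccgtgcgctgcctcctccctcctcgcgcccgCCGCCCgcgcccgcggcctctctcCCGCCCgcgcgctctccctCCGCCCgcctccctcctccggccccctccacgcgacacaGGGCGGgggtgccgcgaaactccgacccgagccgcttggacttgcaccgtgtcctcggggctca
Fgf13 chrX:59567299-59567598: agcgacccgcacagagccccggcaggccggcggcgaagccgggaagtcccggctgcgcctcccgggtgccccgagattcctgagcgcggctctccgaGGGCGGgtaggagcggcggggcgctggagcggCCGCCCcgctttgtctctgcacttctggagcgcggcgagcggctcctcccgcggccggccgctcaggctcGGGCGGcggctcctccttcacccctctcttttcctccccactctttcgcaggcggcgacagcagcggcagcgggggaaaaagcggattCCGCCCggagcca
These windows held 37 and 40 CpG dinucleotides, counts reached by 5.58% and 3.91% of the 32851 windows in the table, and 4 GC boxes each. A GC box was found in 35.7% of all windows. The other 2 windows of Fgf13 held 6 and 3 CpG and 0 GC boxes, and 1 of them held a TATA box (TATAAA, in 13.6% of all windows). Neither an ETS site (CCGGAAGT, in 3.89% of all windows) nor a TCF/LEF site (CTTTGAT, in 3.73%) was found, on either strand, in any of the 12 windows of the 8 FGF genes in the table.

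Fgf13 binds sodium channels, and of the 7 alpha subunit genes measured 0 rose, 1 fell and 6 were not called. Over all genes 10.5% were called. Scn9a, a channel of peripheral sensory neurons, read 5.03 and 5.10 on the day 7 arrays, against 6.12 and 5.74 on those of day 4 (-0.87 log2, adjusted p = 0.0196). It was not called without day 4 replicate 1, day 7 replicate 1 or day 7 replicate 2 (adjusted p = 0.0518, 0.144 and 0.11). The other 6 differed by -0.65 to 0.38 log2.

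The genes whose 4 values, each centred on its own mean, lay nearest to those of Fgf13 were Pcdhb3, P3h2 and Cx3cl1, at Euclidean distances of 0.0526, 0.0648 and 0.0685 log2. Pcdhb3 is a clustered protocadherin of neurons, P3h2 a collagen prolyl hydroxylase, and Cx3cl1 a membrane-bound chemokine. Their differences were 1.25, 1.31 and 1.29 log2 (adjusted p = 0.00322, 0.00237 and 0.00304). With 4 arrays in 2 groups, such a likeness reflects little beyond an equal step between days.

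Among the receptors, Fgfr3 rose and the other 3 were not called. Fgfr3, a receptor of neural progenitors and growth plate cartilage, read 7.73 and 7.10 on the day 7 arrays, against 6.22 and 6.24 on those of day 4. Both arrays of day 7 lay above those of day 4, and the replicates of day 7 were 0.62 apart, a gap that 2.26% of all genes reached. The means were 7.42 ± 0.44 at day 7 and 6.23 ± 0.02 at day 4 (SD, n = 2 per day), a difference of 1.19 log2 (SE 0.21, 95% interval 0.68 to 1.69, limma adjusted p = 0.0147). Without day 7 replicate 1 the difference was 0.87 log2 and the call was lost (adjusted p = 0.0781), and without day 7 replicate 2 it was 1.50 log2 (adjusted p = 0.014).

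Fgfr1, the receptor through which epiblast and early neural cells take up most FGF signals, read 9.87 and 9.86 on the day 7 arrays, against 9.91 and 10.44 on those of day 4. Both arrays of day 7 were below those of day 4, by 0.04 log2 in the nearer case (difference -0.31 log2, SE 0.20, 95% interval -0.78 to 0.16, adjusted p = 0.44). Fgfr2, a receptor of epithelia that is also present in the optic vesicle, read 9.87 and 9.92 on the day 7 arrays, against 9.50 and 10.40 on those of day 4. Both arrays of day 7 fell between those of day 4, whose gap of 0.90 log2 was reached by 1.12% of all genes. The difference of Fgfr2 was -0.05 log2 (SE 0.28, 95% interval -0.70 to 0.60, adjusted p = 0.956), and its sign followed the array left out, with 0.40 without day 4 replicate 2 and -0.50 without day 4 replicate 1. Fgfr4, a receptor of liver, muscle and endoderm, read 6.51 and 6.63 on the day 7 arrays, against 6.42 and 6.45 on those of day 4. Its 2 arrays of day 7 were above those of day 4 by a small margin (difference 0.13 log2, SE 0.14, 95% interval -0.20 to 0.46, adjusted p = 0.675). A change of 1 log2 in either direction lay outside limma's intervals of Fgfr1, Fgfr2 and Fgfr4. These intervals draw on limma's variance prior, and intervals from the 4 arrays alone were not computed. A 2-fold change of these receptors is therefore not excluded.

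**Figure D2:**
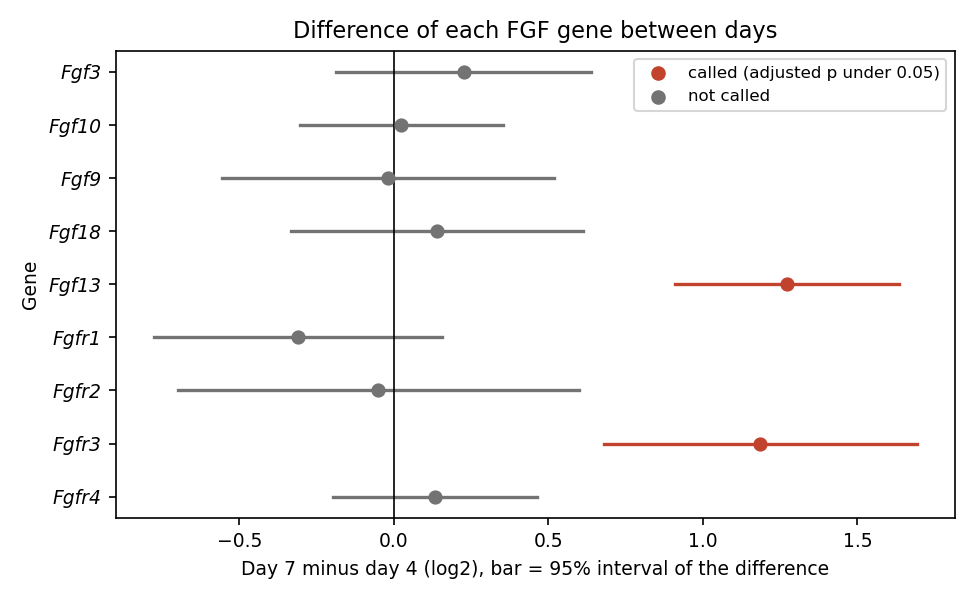
Day 7 minus day 4 difference (horizontal axis, log2) of the 9 FGF genes, with limma's 95% interval as a bar, called genes in red and others in grey. The intervals of Fgf13 (0.91 to 1.64) and Fgfr3 (0.68 to 1.69) lie above 0, and those of the other 7 include 0.

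The change of Fgfr3 was set against the other receptors within each array. The log2 ratio of Fgfr3 to Fgfr1 was -2.14 and -2.76 on the day 7 arrays, against -3.69 and -4.20 on those of day 4. Its ratio to Fgfr2 was -2.14 and -2.82 on the day 7 arrays, against -3.28 and -4.15 on those of day 4. The ratio to Fgfr4 was 1.22 and 0.48 on the day 7 arrays, against -0.20 and -0.21 on those of day 4. In all 3 ratios both arrays of day 7 were above both of day 4, by 1.50, 1.24 and 1.05 log2 on average. The 3 ratios share the values of Fgfr3, the receptor called in these same arrays, so they are not 3 separate results. Because the sensitivity of each probe set differs, the ratios give the change between days and not which receptor was more abundant. Each exact two-sided permutation test gave p = 0.333, the smallest value that 2 arrays against 2 allow.

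The start windows of the receptor that rose are printed beside those of 2 receptors that were not called, with GC boxes in capitals, to show how far their sequence differs (RefSeq, GRCm38.p6, each on the strand of its gene, which is plus for Fgfr3 and Fgfr4 and minus for Fgfr2).
Fgfr3 chr5:33721474-33721773: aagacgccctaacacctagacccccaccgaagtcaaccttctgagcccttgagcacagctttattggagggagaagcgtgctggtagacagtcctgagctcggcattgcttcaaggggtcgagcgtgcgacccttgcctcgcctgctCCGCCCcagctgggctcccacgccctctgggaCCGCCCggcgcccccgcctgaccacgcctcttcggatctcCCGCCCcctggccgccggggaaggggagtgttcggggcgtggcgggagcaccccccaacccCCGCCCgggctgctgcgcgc
Fgfr3 chr5:33722056-33722355: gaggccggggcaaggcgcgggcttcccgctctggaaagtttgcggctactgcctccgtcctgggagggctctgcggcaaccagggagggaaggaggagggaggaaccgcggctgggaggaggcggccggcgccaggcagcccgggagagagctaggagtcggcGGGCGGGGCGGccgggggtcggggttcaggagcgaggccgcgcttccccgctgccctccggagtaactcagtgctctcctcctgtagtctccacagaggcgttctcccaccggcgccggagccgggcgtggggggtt
Fgfr4 chr13:55152568-55152867: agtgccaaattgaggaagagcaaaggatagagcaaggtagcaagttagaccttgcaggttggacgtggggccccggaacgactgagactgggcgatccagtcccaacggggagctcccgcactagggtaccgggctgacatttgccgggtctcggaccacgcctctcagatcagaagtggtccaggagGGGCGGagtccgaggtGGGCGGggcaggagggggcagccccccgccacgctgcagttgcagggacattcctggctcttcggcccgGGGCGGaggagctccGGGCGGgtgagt
Fgfr2 chr7:130266759-130267058: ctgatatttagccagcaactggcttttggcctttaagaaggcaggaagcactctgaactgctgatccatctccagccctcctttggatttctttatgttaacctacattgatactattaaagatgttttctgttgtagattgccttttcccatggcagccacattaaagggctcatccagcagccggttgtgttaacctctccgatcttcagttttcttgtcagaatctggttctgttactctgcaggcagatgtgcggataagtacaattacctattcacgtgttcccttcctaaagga
The windows of Fgfr3 held 26 and 30 CpG dinucleotides and 4 and 2 GC boxes. The window of Fgfr4 held 20 CpG and 4 GC boxes, as many boxes as the first window of Fgfr3, and the window of Fgfr2 held 4 CpG and 0 GC boxes. The number of these boxes therefore did not separate Fgfr3 from Fgfr4. Of the ligand genes, Fgf18 had the window richest in CpG, with 47. Fgf18 and Fgf10 held 1 GC box each, while Fgf3 and Fgf9 held 0.

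**Figure D3:**
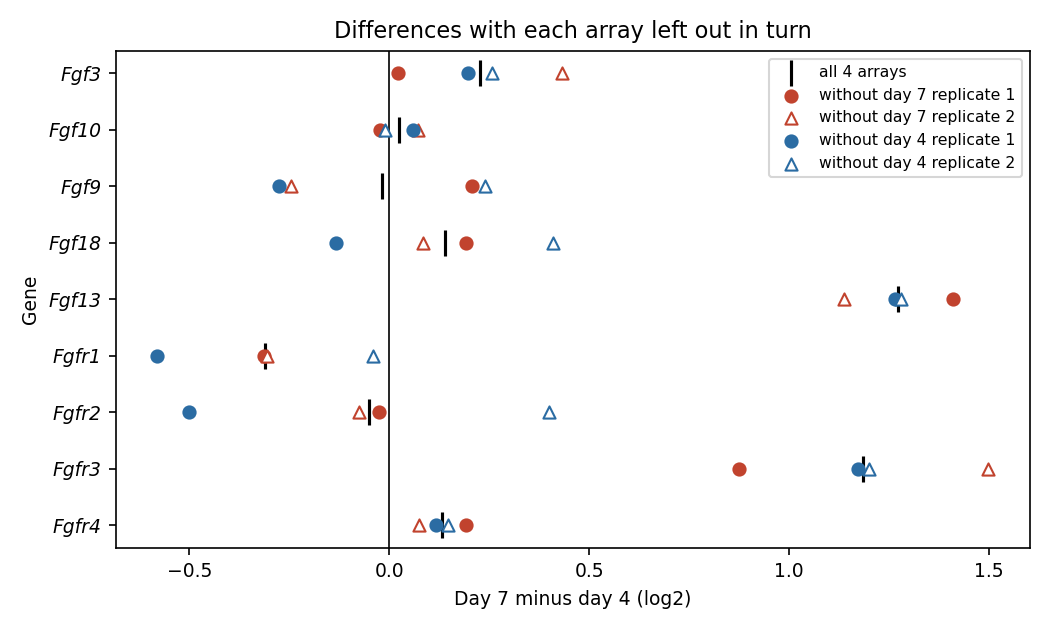
Day 7 minus day 4 difference (horizontal axis, log2) of the 9 FGF genes with all 4 arrays (black bar) and with each array left out in turn (day 7 arrays in red, day 4 arrays in blue, replicate 1 filled, replicate 2 open). Fgf13 stays between 1.14 and 1.41 and Fgfr3 between 0.87 and 1.50, while Fgf9, Fgf10, Fgf18 and Fgfr2 lie on both sides of 0.

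The extracellular binding site of Fgfr1, Fgfr2 and Fgfr3 depends on splicing: the splicing factors Esrp1 and Esrp2 favour the IIIb form of epithelial cells over the IIIc form of mesenchymal and neural cells. Esrp1 fell to 6.17 and 6.64 on the day 7 arrays, against 9.24 and 8.98 on those of day 4 (-2.70 log2, SE 0.20, 6.51-fold, adjusted p = 0.000421). Esrp2 read 6.82 and 7.05 on the day 7 arrays, against 7.15 and 6.95 on those of day 4, and was not called (-0.12 log2, adjusted p = 0.764). Each receptor was read by 1 value per array, so the IIIb and IIIc forms were not measured apart.

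Of 5 genes of co-receptors and FGF binding proteins, 2 rose, 1 fell and 2 were not called, while 10.5% of all genes were called. Fgfrl1, a receptor relative without a kinase domain, read 9.04 and 8.82 on the day 7 arrays, against 8.14 and 8.12 on those of day 4 (0.80 log2, SE 0.15, adjusted p = 0.0157). Fgfbp3, a secreted carrier that frees FGFs from the matrix, read 9.13 and 8.56 on the day 7 arrays, against 7.55 and 7.52 on those of day 4 (1.31 log2, SE 0.20, adjusted p = 0.0079). Like Fgfr3, it was higher in replicate 1 than in replicate 2 at day 7. Fgfbp1, a carrier of epithelia, read 5.18 and 5.07 on the day 7 arrays, against 5.80 and 5.97 on those of day 4 (-0.76 log2, SE 0.14, adjusted p = 0.0179). The call of Fgfbp3 held with each array left out (adjusted p at most 0.048). Fgfrl1 and Fgfbp1 were not called without day 7 replicate 1 (adjusted p = 0.145 and 0.108) or without day 7 replicate 2 (0.0635 and 0.141).

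Heparan sulfate, which holds ligand and receptor together, is built and sulfated by enzymes of the Golgi and trimmed outside the cell by the sulfatases Sulf1 and Sulf2. The array measured 25 genes of both kinds, of which 7 rose, 0 fell and 18 were not called. Over all genes 6.15% were higher and 4.33% lower. The median difference was 0.39 log2 for the 25 genes and -0.0036 over all genes. Xylt1, which starts the chain on its protein core, read 9.25 and 9.18 on the day 7 arrays, against 7.34 and 7.49 on those of day 4 (3.47-fold, 1.80 log2, adjusted p = 0.000579). Ext1, a chain polymerase, rose by 0.99 log2 (adjusted p = 0.0079), and the sulfotransferase gene Ndst3 by 1.04 log2 (adjusted p = 0.0281). The other 4 were Hs3st1 and Hs6st2, sulfotransferase genes (0.97 and 0.92 log2), Sulf2, which encodes a sulfatase (0.82 log2), and Extl3 (0.61 log2). The sulfotransferase gene Hs3st5 had a negative difference, with 4.15 and 4.16 on the day 7 arrays, against 5.41 and 4.63 on those of day 4, and was not called (-0.86 log2, adjusted p = 0.0749). It was called lower under 5 alternatives (adjusted p = 0.00346 to 0.0492), among them without day 4 replicate 2. Without day 7 replicate 1 the count of 7 was 1, without day 7 replicate 2 it was 2, and Xylt1 was called in both cases (adjusted p at most 0.0101).

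**Figure D4:**
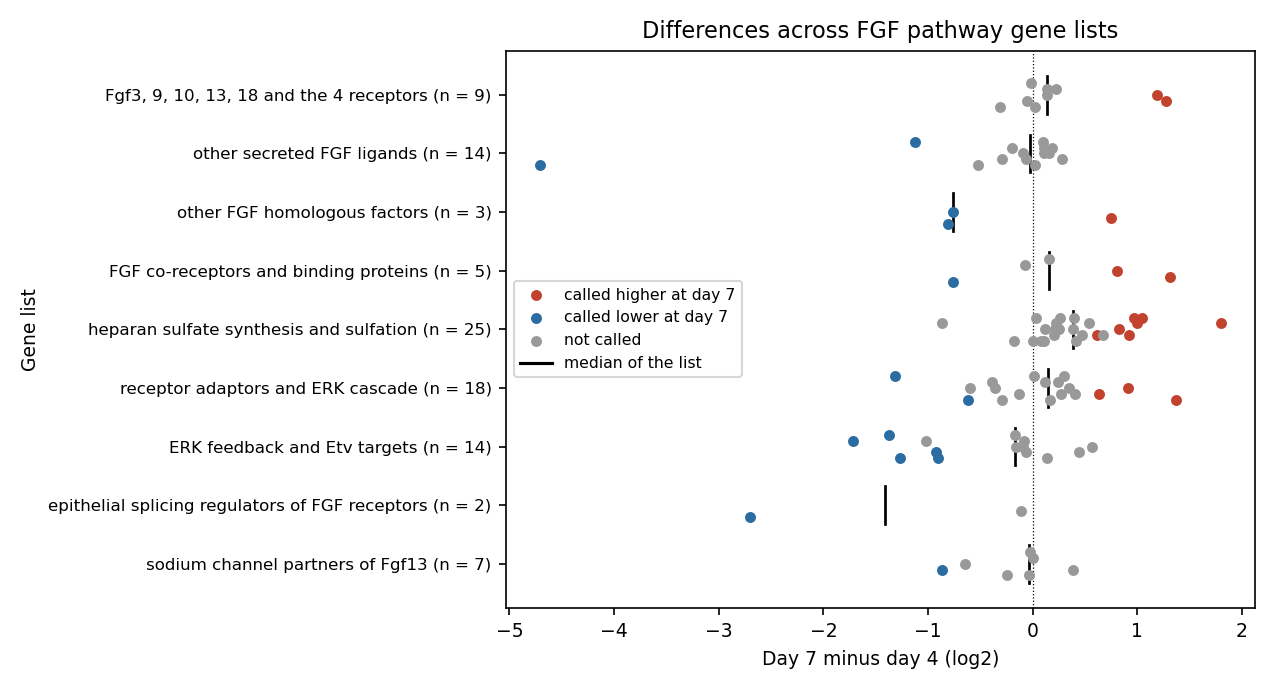
Day 7 minus day 4 difference (horizontal axis, log2) of each measured gene, 1 dot per gene, in the 9 FGF genes and 8 other FGF pathway lists, with called genes in red (higher) or blue (lower), genes not called in grey and the median of the list as a black line. The 7 called heparan sulfate genes lie to the right of 0 and the 5 called ERK feedback genes to the left.

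Inside the cell, 18 genes of receptor adaptors and the ERK and PI3 kinase cascades gave 3 rises, 2 falls and 13 genes not called. The called share of all genes was 10.5%. Akt1, a kinase downstream of PI3 kinase, read 10.61 and 10.53 on the day 7 arrays, against 9.16 and 9.23 on those of day 4 (1.37 log2, adjusted p = 0.00142). The Ras exchange factor gene Sos2 rose by 0.91 log2 (adjusted p = 0.00894) and the PI3 kinase subunit gene Pik3r1 by 0.64 log2 (adjusted p = 0.0269). The adaptor gene Shb fell by 1.32 log2 (adjusted p = 0.00306) and the adaptor gene Shc1 by 0.62 log2 (adjusted p = 0.0428). Akt1 and Shb were called with each array left out. Sos2, Pik3r1 and Shc1 were not called without day 7 replicate 1 (adjusted p = 0.0915, 0.175 and 0.28) or day 7 replicate 2 (0.0643, 0.169 and 0.142). Without day 4 replicate 1 Pik3r1 had 0.0643 and Shc1 0.118, and without day 4 replicate 2 Pik3r1 had 0.052.

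Feedback inhibitors and Etv factors are genes that ERK signalling switches on. The 14 measured genes gave 0 rises and 5 falls, with 9 not called and a median difference of -0.16 log2. Of all genes 6.15% were higher and 4.33% lower, with a median difference of -0.0036 log2. Spry4, a feedback inhibitor, read 7.30 and 7.81 on the day 7 arrays, against 9.52 and 9.03 on those of day 4 (3.29-fold lower, -1.72 log2, adjusted p = 0.00444). Spred3, an inhibitor of the same family, fell by 1.37 log2 (adjusted p = 0.00133) and the transcription factor gene Etv5 by 1.27 log2 (adjusted p = 0.00529). Spry2 fell by 0.93 log2 and the ERK phosphatase gene Dusp4 by 0.91 log2 (adjusted p = 0.0323 and 0.0274). Dusp6, another phosphatase gene under ERK control, read 10.16 and 10.54 on the day 7 arrays, against 10.55 and 10.46 on those of day 4, and was not called (-0.16 log2, adjusted p = 0.687). Etv1 differed by -1.02 log2 (adjusted p = 0.0604). Spred1, an inhibitor of the Spred3 family, had a positive difference of 0.56 log2 (adjusted p = 0.0565) and was called higher under 5 alternatives (adjusted p = 0.0162 to 0.0438). Without day 7 replicate 1 the 5 calls were 2, Spry4 and Spred3, with Etv5 at an adjusted p of 0.0578, Spry2 at 0.19 and Dusp4 at 0.197. Without day 4 replicate 1 Spry2 had 0.0884, and Dusp4 lost its call without either replicate 2 (0.069 for day 4, 0.0583 for day 7).

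Markers of several cell types that the aggregates could hold changed between the same days as Fgf13 and Fgfr3. The list of primed epiblast markers had 6 of 7 genes lower at day 7, with a mean level over the list of 8.0 and 8.18 on the day 7 arrays, against 10.70 and 10.49 on those of day 4. Dorsal forebrain markers were called higher in 5 of 6 cases, with Wnt8b 42.7-fold and Emx2 35.8-fold higher (mean level 8.43 and 8.47 on the day 7 arrays, against 5.07 and 5.52 on those of day 4). Neural crest markers were higher in 5 of 7 cases and lower in 1 (7.98 and 7.96 on the day 7 arrays, against 6.78 and 6.64 on those of day 4), with Sox10, a defining gene of the crest, at 7.94 and 7.37 on the day 7 arrays, against 5.54 and 5.93 on those of day 4. Endoderm markers were called higher in 2 and lower in 1 of 8 cases (7.55 and 7.86 on the day 7 arrays, against 7.60 and 7.61 on those of day 4). Mesoderm, surface ectoderm and endothelial lists had 1 gene higher and 0 lower each, of 7, 7 and 5 measured. Over all genes 10.5% were called, so a count of 1 in lists this short does not set them apart. The surface ectoderm call was Eya2 (2.89 log2, limma adjusted p = 0.00035), which lay between 2.61 and 3.17 log2 with 1 array left out. In the endoderm list Cxcr4 was higher (2.50 log2, limma adjusted p = 0.000566) and Epcam lower (-2.14 log2, 0.00106). With 1 array left out these lay between 2.29 and 2.70 and between -2.39 and -1.89 log2. The mesoderm call, Foxc2, was lost without either day 7 array (adjusted p = 0.0794 without replicate 1, 0.13 without replicate 2). The endothelial call, Kdr, was lost without day 4 replicate 1 (0.0553), day 4 replicate 2 (0.0505) or day 7 replicate 2 (0.148). The pigment epithelium list had 2 of 6 genes higher and 0 lower (6.52 and 7.61 on the day 7 arrays, against 6.07 and 6.01 on those of day 4), and the mid- and hindbrain list 2 of 9 higher and 0 lower. Of these lists' calls, Dct was lost without day 4 replicate 1 (0.0519), and Pax2 without that array (0.0505) or day 7 replicate 2 (0.108). Sox17 of the endoderm list and Foxd3, the crest gene that was lower, were lost without day 4 replicate 1 (0.092 and 0.0638), day 7 replicate 1 (0.139 and 0.0666) or day 7 replicate 2 (0.205 and 0.171). At day 7 Fgfr3 was lower in replicate 2 than in replicate 1, and Fgf13 was higher in replicate 2 (8.05 and 8.33). The means of the eye field list (9.46 and 9.91) and of the pigment epithelium list were higher in replicate 2. Within the eye field list genes went both ways. Most were higher in replicate 2, namely Pax6 (9.81 and 10.06), Six6 (7.11 and 9.33), Rax, Six3, Sfrp2 and Sox2. Only Lhx2 (10.19 and 10.12) and Hmga2 (11.65 and 11.37) were lower. The neural crest list also went both ways: Sox10, Foxd3 and Tfap2b were lower in replicate 2, and Snai2, Twist1, Pdgfra and Erbb3 higher. In the dorsal forebrain list Emx2 (10.01 and 9.67), Emx1, Wnt8b and Fezf2 were lower in replicate 2, and Lmx1a and Wnt3a higher. The part of cell composition in the differences of Fgf13 and Fgfr3 was not tested.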

How the data were processed

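RNA of 4 samples was measured on an Affymetrix gene array, 2 from day 7 and 2 from day 4, grouped by the day in their titles. Per the submitters' processing notes, the authors used RMA in Partek 6.5, and the deposited values are on a log2 scale. RMA corrects background, quantile-normalizes arrays and summarises probes; its settings are not given in the sources used here. Residual background shrinks the folds of dim genes, and a shift that most genes share is removed.

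Of 41345 probe sets, 23521 named 1 gene and were kept, with the highest mean over the 4 arrays per gene, which gave 22180 genes. Day 7 minus day 4 was estimated with limma 3.58.1 (lmFit, then eBayes without a trend) in R 4.3.3, on day alone, leaving 2 residual degrees of freedom, in two-sided tests with Benjamini-Hochberg adjustment over all genes. Intervals and SEs are limma's moderated ones, and all adjusted p-values in the text are limma's. The fit was tested on simulated data. The number of arrays limits the precision.

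All 9 FGF genes had a mean above the 25th percentile of level (4.60), and 6 lay above the 50th (6.29), with Fgf3, Fgf9 and Fgf10 below it. The genes and the 18 other lists were chosen with earlier results of these data known. Named genes were the 9 FGF genes, the largest called rises and falls of each pathway or marker list, at most 3 of each (or, in a list without a call, its gene furthest from 0), and the 3 genes nearest to the FGF gene with the largest called rise; not all marker genes named this way are discussed. A further 29 genes were named after their values were seen, as relatives, neighbours or to complete a count: Fgf7, Fgf8, Fgf15, Fgf16, Fgf17, Fgf20, Fgf22, Extl3, Hs6st2, Hs3st1, Sulf2, Spry2, Dusp4, Dusp6, Etv1, Esrp2, Rax, Nsd1, Nsd2, Nsd3, Tacc1, Tacc3, Letm1, Letm2, Ano1, Hs3st5, Spred1, Six3 and Six6. Sfrp2, Sox2, Twist1, Pdgfra, Erbb3, Emx1, Lmx1a, Wnt3a, Mcf2, Scn1a, Scn2a, Scn10a and Scn11a are named besides these, also with their values seen. Their values under the alternatives are not given. Alternatives were a replicate block, leaving out each array, quantile normalization, median centring, filters at both percentiles, an intensity trend with and without robust estimation, averaging the probe sets of a gene and, added after seeing the data, no variance prior. Start windows and gene order came from RefSeq tables of GRCm38.p6, which matched 8 of the 9 FGF genes for windows.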

Additional observations from a re-analysis of the deposited data

How the results depend on the processing

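Fgf13 and Fgfr3 were higher at day 7 under the 6 alternatives that could move their difference (each array left out, quantile normalization, median centring); the other 7 bear on the call alone. Without a variance prior, where each gene's spread comes from 4 arrays alone, neither was called (adjusted p = 0.222 and 0.333), 0 of the 9 FGF genes and 0 of the 88 other pathway genes passed, and over all genes 2 were higher and 1 lower, with 3557 at an unadjusted p under 0.05. Leaving out 1 array, which leaves 1 sample for its day that is assumed to vary like the other day, gave 573 to 1378 genes higher and 314 to 1122 lower at day 7 (1364 and 960 with all arrays), 1 or 2 FGF genes higher in place of 2, and 8 to 28 other pathway genes called in place of 27. The sign of some uncalled differences turned: Fgf9 (-0.02) was between -0.28 and 0.24 with 1 array left out, 0.013 with quantile normalization and 0.023 with median centring, Fgf10 (0.02) between -0.023 and 0.073 and -0.088 with its probe sets averaged. With 1 array left out, Fgf18 lay between -0.13 and 0.41, Fgfr2 between -0.50 and 0.40, Fgf8 between -0.12 and 0.49, Fgf22 between -0.22 and 0.026, Dusp6 between -0.35 and 0.033, Esrp2 between -0.23 and 0.0019, Letm2 between -0.073 and 0.25 and Six3 between -0.58 and 1.31. Etv1 was called under 5 alternatives (adjusted p = 0.0179 to 0.0352). The replicate numbers of the titles did not establish pairs: deviations of same-numbered arrays correlated with r = 0.186 across genes over 2 pairs. With the replicate block 1606 genes were higher and 1164 lower, 2 and 0 of the FGF genes (Fgf13 adjusted p = 0.00375, Fgfr3 0.0125), and none (0) of the 56 other called genes named by rule or listed was lost. Without a detection call in the table, absence of Fgf3, Fgf9 and Fgf10 cannot be told from low expression.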

Other observations

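Of the 18 measured protein-coding genes nearest to the 9 FGF genes on the chromosome, 1 on each side in RefSeq order, 1 was higher, 1 was lower and 16 were not called, a share of calls near the 10.5% of all genes. Both calls flanked Fgf3: the chloride channel gene Ano1 was higher, at a mean of 7.69 at day 7 against 5.96 at day 4 (log2 difference 1.73, adjusted p = 0.00206), and Fgf4 was lower, at 7.96 at day 7 against 9.08 at day 4. Fgf15 comes next after Fgf4 in the same cluster. Fgf3 itself, between Ano1 and Fgf4, was not called, so that this stretch held a gene called higher, an FGF gene not called and an FGF gene called lower. Among the genes second after an FGF gene, Mcf2, beyond Fgf13, was called lower. Its mean was 6.41 at day 7 against 8.57 at day 4 (-2.17 log2, limma adjusted p = 0.000252). Nsd2 and Nsd3, described below, were called higher, and the rest were not called. These were 1 gene for each of the 9 FGF genes, and 10.5% of all genes were called. The genes second before an FGF gene were not looked at.

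Fgfr1, Fgfr3 and Fgfr4 each lie in a chromosome block with an Nsd gene, which encodes a histone H3 methyltransferase. The blocks of Fgfr1 and Fgfr3 also carry Tacc and Letm genes. In the block of Fgfr3, Nsd2 was higher, at a mean of 10.62 at day 7 against 9.57 at day 4 (1.05 log2, adjusted p = 0.00496, or 0.06 with day 7 replicate 1 left out), while Tacc3 and Letm1, which stand on either side of Fgfr3, differed by 0.26 and -0.46 log2 and were not called (adjusted p = 0.324 and 0.157). In the block of Fgfr1, Nsd3 was at 8.79 at day 7 against 8.23 at day 4 (log2 difference 0.56, adjusted p = 0.0491). It was not called without any 1 of the arrays (adjusted p = 0.0756 to 0.287) or with quantile normalization (0.0539). Tacc1 and Letm2, beside Fgfr1, differed by 0.24 and 0.09 log2 and were not called (adjusted p = 0.458 and 0.835). Beside Fgfr4, Nsd1 differed by -0.20 log2 and was not called (adjusted p = 0.492). Whether genes of these blocks move together with their receptor was not tested.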
